A study of Mus musculus with 12 samples.

Results

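The STAT family of transcription factors was followed at the RNA level in mouse CD4+ T cells cultured toward different helper fates. The 6 genes described, Stat2, Stat3, Stat4, Stat5a, Stat5b and Stat6, were taken by the gene name that the array design gives, with all 11 of their probes. The array carries 41174 probes under 27597 gene names, and 17925 genes were bright enough to be tested, all 6 STAT genes among them. STAT proteins wait in the cytoplasm until a cytokine binds its receptor and the Janus kinases on that receptor phosphorylate them. They then pair, enter the nucleus and bind DNA, and the genes they switch on include the SOCS proteins that shut the signal off. In helper T cells, STAT6 carries the IL-4 signal, both STAT5 proteins the IL-2 signal, STAT3 the signals of IL-6, IL-10 and IL-21, STAT4 that of IL-12, and STAT2 that of the type I interferons.

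RNA of C57BL/6 cells was read on 12 arrays, 3 in each of 4 groups. All cultures began with naive CD4+CD62L+ T cells from spleen and lymph nodes, activated with anti-CD3 and anti-CD28 and harvested after 5 days. Th2 cultures received IL-4 (20 ng/ml) and anti-IFN-γ, and Th9 cultures received these together with TGF-β (2 ng/ml). For regulatory T cells (Treg), TGF-β (2 ng/ml) was combined with anti-IL-4. At the expansion on day 3 the protocol names IL-4 and TGF-β for Th9 cells and IL-2 for Treg cells. A further group, stimulated Th9, was given anti-CD3 (1 µg/ml) for 6 h at the end of the 5 days. IL-4 was therefore given to both the Th2 and the Th9 cultures, whereas Treg cultures received an antibody against it. Whether the arrays of a group stand for separate mice or cultures is not stated in the labels, and the p-values therefore reflect the scatter among these samples alone, which may be technical. A culture is a bulk sample, in which fewer cells of a type and less RNA per cell cannot be told apart.

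The 12 arrays had between 59.8% and 63.7% of probes well above background, and arrays of a group correlated at 0.988 to 0.995 over the genes tested. Each of 10 CD4 T cell identity genes was well above background on every array. Il9, the cytokine that names the Th9 fate, was well above background on all Th9 and stimulated Th9 arrays and on no Th2 or Treg array. Foxp3, the factor that defines Treg cells, had a mean level of 0.57 in Treg and -1.98 in Th9 cultures and was not well above background in Th2. The summed level of 9 B cell markers was 57.0 to 78.1 in Treg, 5.31 to 7.04 in Th9, 2.62 to 4.53 in Th2 and 0.77 to 2.62 in stimulated Th9 arrays, as linear signal relative to the array's 75th percentile. All 9 were well above background on all Treg arrays and on all Th9 arrays. On all arrays of the group, 7 were so in Th2 and 5 in stimulated Th9. The summed level of 7 CD8 T cell and NK cell markers was 14.1 to 18.4 in Th2, 21 to 28 in Th9, 2.83 to 16.5 in stimulated Th9 and 15.7 to 21.2 in Treg arrays. The part of RNA from B cells or from CD8 T cells and NK cells in the results below was not tested. The arrays lay on 3 slides: Th2 with Treg array 1, Treg arrays 2 and 3 with stimulated Th9 arrays 1 and 2, and Th9 with stimulated Th9 array 3. Th9 arrays thus shared no slide with Th2 or Treg arrays.

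A probe reads a target of 60 bases in the transcript, and a level is the log2 of its processed signal relative to the array's 75th percentile. All 11 STAT targets were well above background on all 12 arrays. Stat2 and Stat4 have 1 target each, on mm8 chr10:127695074-127695133 and chr1:52051503-52051562, both on the plus strand. Stat6 has 3, of which the brightest is chr10:127063582-127063641 on the plus strand. The other genes lie together on chromosome 11, with Stat5a read at chr11:100700920-100700979 on the plus strand and Stat3 on the minus strand at chr11:100704374-100704433 and chr11:100701238-100701297. The last of these is 258 bases from the Stat5a target, on the opposite strand. Stat5b is read on the minus strand at 3 places, at transcript positions 5093 (chr11:100596875-100596934), 2369 (chr11:100603430-100604478) and 1095 of a thymus cDNA (chr11:100637496-100637555). No STAT target shared a run of more than 10 bases with a target of another STAT gene. The exon and UTR annotation of this build was not used here. Each gene is represented by its brightest target unless another is named. Levels of different targets are not compared, since probes differ in brightness.

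The Stat5b target at position 2369 is shown because it separated the cultures more widely than the brightest target of its gene. Its 60 bases extend over 1049 bases of the mm8 genome, so that it crosses an exon junction.
Stat5b position 2369: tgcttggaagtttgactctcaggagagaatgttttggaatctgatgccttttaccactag

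**Figure D1:**
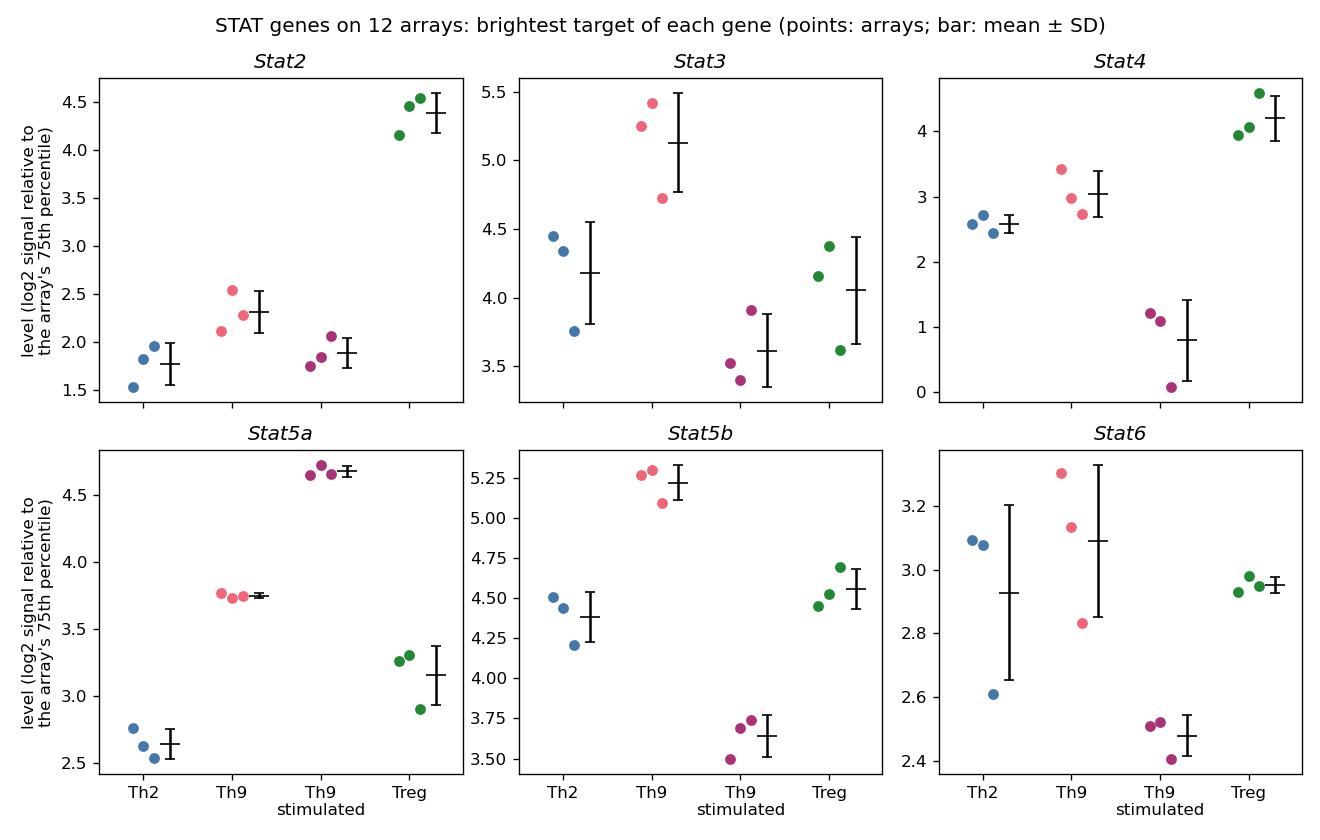
Level of the brightest target of each STAT gene (vertical axis, log2 signal relative to the array's 75th percentile, with its own range in each panel) in the 4 groups, with a point for each of 3 arrays and the mean ± SD beside them. Stat2 and Stat4 were highest in Treg, Stat5a was highest in stimulated Th9, and Stat3 and Stat5b were highest in Th9 cultures.

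STAT5 is the family's IL-2 arm, encoded by a pair of neighbouring genes, and their RNAs went opposite ways when Th9 cells were restimulated. Stat5a levels were 2.76, 2.62 and 2.53 on Th2 arrays 1 to 3, 3.77, 3.73 and 3.74 in Th9, 4.65, 4.72 and 4.66 in stimulated Th9, and 3.26, 3.30 and 2.90 in Treg. The 4 groups did not overlap, and each step in the order stimulated Th9, Th9, Treg and Th2 passed the test. Stat5b at position 5093 read 4.50, 4.44 and 4.21 in Th2, 5.27, 5.30 and 5.09 in Th9, 3.50, 3.69 and 3.74 in stimulated Th9, and 4.45, 4.53 and 4.69 in Treg. Its lowest values were those of stimulated Th9, where Stat5a was highest, and Th2 and Treg arrays overlapped. After anti-CD3, Stat5a rose by 0.93 ± 0.12 on the log2 scale (SE; 1.90-fold; limma adjusted p = 3.79e-05) and Stat5b fell by 1.58 ± 0.12 (2.98-fold; adjusted p = 9.71e-07). Both were higher in Th9 than in Th2, Stat5a by 1.11 ± 0.12 (2.16-fold; adjusted p = 0.000157) and Stat5b by 0.84 ± 0.12 (1.79-fold; adjusted p = 0.00112). Both were also higher in Th9 than in Treg, by 0.59 ± 0.12 (adjusted p = 0.00108) and 0.66 ± 0.12 (adjusted p = 6e-04). Stat5a was lower in Th2 than in Treg, at -0.52 ± 0.12 (adjusted p = 0.0026).

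The 3 targets of Stat5b fell together after anti-CD3 but gave different pictures of the Treg cultures. At position 2369 the levels were 1.96, 2.12 and 1.59 in Th2, 3.16, 2.80 and 2.76 in Th9, 0.66, 0.69 and 0.75 in stimulated Th9, and -0.70, -0.61 and -0.12 in Treg. All Treg arrays were the lowest there, below stimulated Th9, and no groups overlapped. Tested on its own over 27130 probes, this target was higher in Th9 than in Treg by 3.38 ± 0.18 (10.4-fold; limma adjusted p = 1.08e-07) and higher in Th2 than in Treg by 2.37 ± 0.18 (5.16-fold; adjusted p = 1.3e-06). At position 5093, Th2 minus Treg was -0.17 ± 0.12 (adjusted p = 0.222; 95% interval -0.44 to 0.09). The target in the thymus cDNA read -0.71, -0.66 and -1.25 in Th2, -0.21, -0.46 and -0.86 in Th9, -1.32, -1.78 and -2.71 in stimulated Th9, and 0.10, -0.24 and -0.20 in Treg. Its Treg values were the highest of the groups by mean, and they overlapped those of Th9. Within arrays, the log2 ratio of position 2369 to position 5093 averaged -2.31 in Th9, -2.49 in Th2, -2.94 in stimulated Th9 and -5.03 in Treg. The Treg ratios, -5.15, -5.14 and -4.81, lay apart from the other groups. An exact two-sided permutation test of Th9 against Treg gave p = 0.1, the smallest that 3 against 3 arrays allow. Position 2369 was called between Th2 and Treg under all 13 alternatives run on single targets, with a log2 difference of 2.25 to 2.59. The 2.59 came with slide as a fixed block, which here equals the difference within slide 1, with 1 Treg array.

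**Figure D2:**
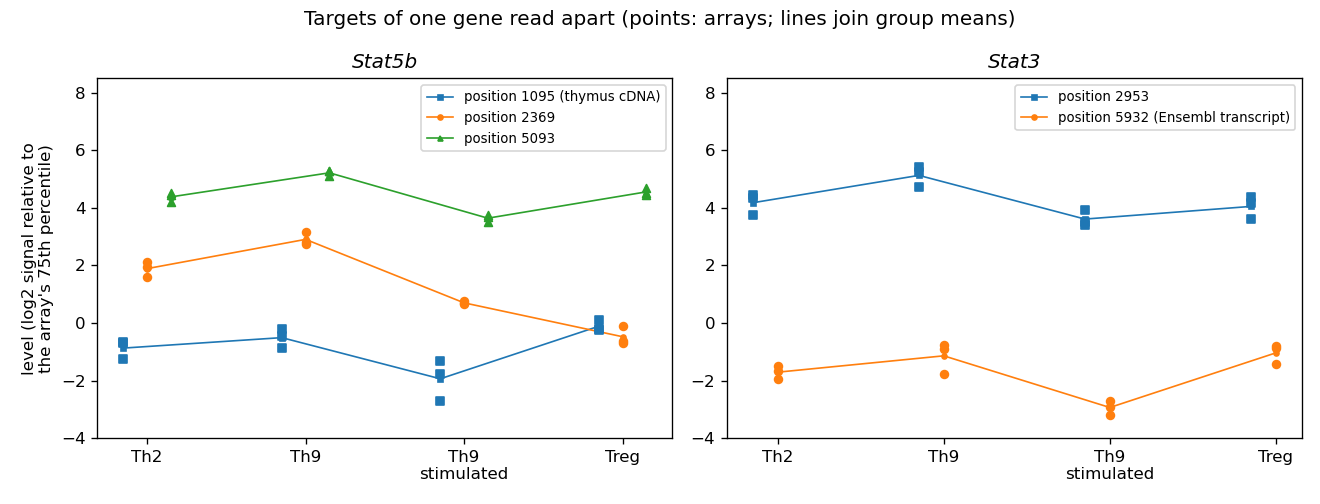
Levels of the separate targets of Stat5b and Stat3 (vertical axis, log2 signal relative to the array's 75th percentile) in the 4 groups, with a point per array and lines joining group means. The Stat5b target at position 2369 was at -0.48 in Treg against 2.91 in Th9, whereas the target at position 5093 was at 4.56 against 5.22.

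Stat3, which carries the IL-6 family and IL-21 signals, was highest in Th9 and fell on restimulation. Levels were 4.45, 4.34 and 3.75 in Th2, 5.25, 5.42 and 4.72 in Th9, 3.52, 3.40 and 3.91 in stimulated Th9, and 4.16, 4.38 and 3.62 in Treg. Every Th9 array lay above every array of the other groups, while Treg overlapped both Th2 and stimulated Th9. Array 3 was the lowest in Th2, Th9 and Treg and the highest in stimulated Th9. The target has 10 spots, and the SD between them within an array had a median of 0.04, less than the SD of 0.36 between Th9 arrays. Stat3 was higher in Th9 than in Treg by 1.08 ± 0.26 (2.11-fold; adjusted p = 0.0041) and fell by 1.52 ± 0.26 after anti-CD3 (2.86-fold; adjusted p = 0.000408). Taken as the mean of its targets, Th9 minus Treg was 0.49 (adjusted p = 0.115), and it was 0.68 (adjusted p = 0.318) with slide as a fixed block. The excess over Th2, 0.95 ± 0.26 (adjusted p = 0.0316), lost its call without any of 4 arrays: Th2 arrays 2 (adjusted p = 0.0594) and 3 (0.104) and Th9 arrays 1 (0.0939) and 2 (0.112). The dim second target, at position 5932 of an Ensembl transcript, also fell after anti-CD3, by 1.80 ± 0.27 (adjusted p = 0.000147). It differed from the brighter target toward Treg, where it read -0.79, -0.89 and -1.44 against -0.76, -0.90 and -1.77 in Th9, with Th9 minus Treg at -0.10 ± 0.27 (adjusted p = 0.756).

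Stat4, which answers IL-12 and type I interferon and is known for the Th1 fate, was highest in Treg and lowest in stimulated Th9. Levels were 2.59, 2.72 and 2.44 in Th2, 3.43, 2.98 and 2.73 in Th9, 1.21, 1.10 and 0.08 in stimulated Th9, and 3.94, 4.06 and 4.59 in Treg. No groups overlapped, although the lowest Th9 array and the highest Th2 array nearly met. The fall after anti-CD3 was 2.25 ± 0.30 (4.75-fold; adjusted p = 5.81e-05), the widest among the 6 genes, and it was 2.97 within slide 3, on which stimulated Th9 array 3 lay beside the Th9 arrays. Stat4 was lower in Th9 than in Treg, at -1.15 ± 0.30 (2.22-fold; adjusted p = 0.00583), and in Th2 than in Treg, at -1.61 ± 0.30 (3.06-fold; adjusted p = 0.000721). With slide as a fixed block, Th9 minus Treg was -0.20 (adjusted p = 0.704). Th9 minus Th2 was 0.46 ± 0.30 (adjusted p = 0.322; 95% interval -0.20 to 1.12).

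Stat2, which joins IRF9 in the complex that carries the type I interferon signal, was set apart by the Treg cultures. Levels were 1.53, 1.83 and 1.96 in Th2, 2.11, 2.54 and 2.28 in Th9, 1.75, 1.85 and 2.06 in stimulated Th9, and 4.16, 4.46 and 4.55 in Treg. The Treg arrays lay clear of every other array, and Th2 overlapped stimulated Th9. Stat2 was lower than in Treg in Th9, at -2.08 ± 0.16 (4.23-fold; adjusted p = 1.39e-06), and in Th2, at -2.62 ± 0.16 (6.15-fold; adjusted p = 2.93e-07). Within slide 1, Th2 minus Treg was -2.39. The remaining Stat2 differences were smaller and depended on single arrays. Th9 minus Th2 was 0.54 ± 0.16 (adjusted p = 0.0444), and its adjusted p was 0.15 without Th2 array 1, 0.0892 without Th2 array 2, 0.154 without Th9 array 2 and 0.0787 without Th9 array 3. After anti-CD3 the difference was -0.43 ± 0.16 (adjusted p = 0.0394). That call was lost without Th9 array 2 (adjusted p = 0.15) or 3 (0.0691), without stimulated Th9 array 1 (0.122) or 2 (0.0928), and with slide as a fixed block (0.35).

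Stat6, the IL-4 arm that both Th2 and Th9 cultures engage, had the narrowest range of group means among the brightest targets of the 6 genes, 0.61 from stimulated Th9 to Th9. Levels were 3.09, 3.08 and 2.61 in Th2, 3.30, 3.13 and 2.83 in Th9, 2.51, 2.52 and 2.40 in stimulated Th9, and 2.93, 2.98 and 2.95 in Treg. Th2, Th9 and Treg overlapped, and the stimulated arrays lay below them all. Differences that did not pass the test were 0.16 ± 0.15 for Th9 minus Th2 (adjusted p = 0.508; 95% interval -0.17 to 0.50), 0.14 ± 0.15 for Th9 minus Treg (adjusted p = 0.446; -0.20 to 0.47) and -0.02 ± 0.15 for Th2 minus Treg (adjusted p = 0.897; -0.36 to 0.31). Stat6 fell by 0.61 ± 0.15 after anti-CD3 (1.53-fold; adjusted p = 0.00446). Its target at position 3098, read by 10 spots, fell by 0.60 ± 0.15 (adjusted p = 0.00414), while the dim target at position 300 gave -0.037 ± 0.21 (adjusted p = 0.892).

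**Figure D3:**
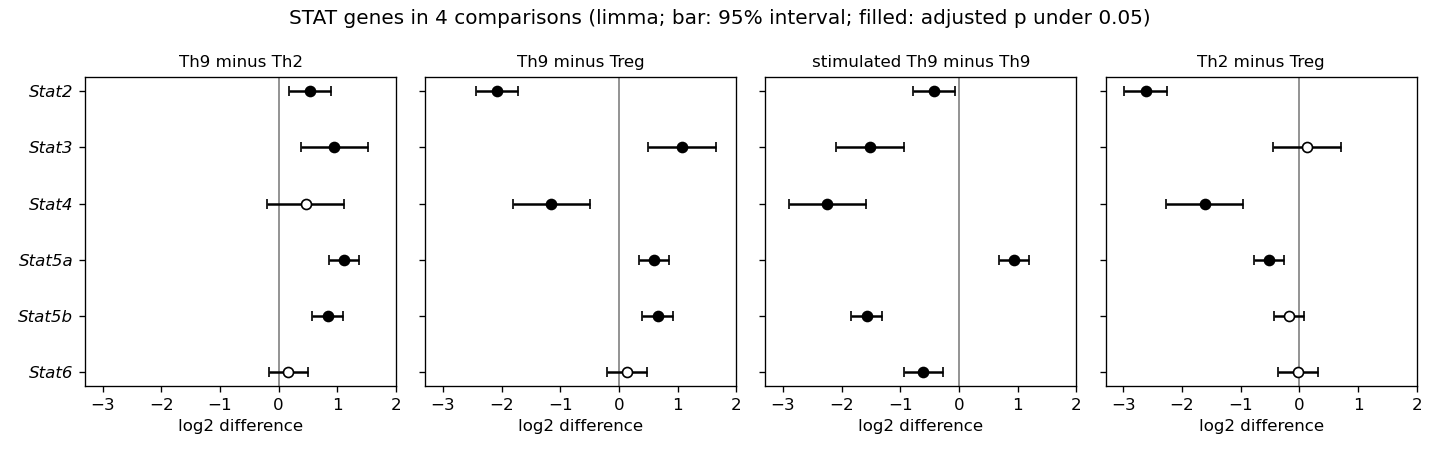
Log2 difference of each STAT gene (horizontal axis) in 4 comparisons, with the 95% interval of the limma fit. Filled points had an adjusted p under 0.05. Points right of 0 were higher in the group named first. In stimulated Th9, 5 genes lie left of 0 and Stat5a lies right of it.

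Counted over the family, 4 of 6 genes were higher in Th9 than in Th2 and 0 lower, where 7.76% of all genes were called higher and 9.25% lower. Of the 11 targets, 5 were called, against 16.1% of all probes. With slide as a fixed block 0 of the 6 genes were called and Stat2 changed sign, to -0.069 (adjusted p = 0.969). Stat5a then stood at 1.29 (adjusted p = 0.066), and 317 of all genes were called instead of 3049. The pathway lists described next then held 0 to 2 called genes in each direction. For Th9 against Treg, 3 genes were higher and 2 lower, with 28.8% and 35.3% of all genes called in these directions and 64.4% of all probes against 6 of 11 targets. Here 2 genes, Stat2 and Stat5a, were called with the slide block. After anti-CD3, 1 gene rose and 5 fell, against 33.2% and 30.5% of all genes, and 10 of 11 targets were called against 64.7% of all probes. Between Th2 and Treg 0 genes were higher and 3 lower, against 29.3% and 33.5% of all genes, with 5 of 11 targets called against 63.5% of all probes. Apart from Th9 against Th2, most genes tested were called, so these shares do not set the family apart. The comparisons share arrays, Th9 arrays entering 3 of them and Treg arrays 2.

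The ligands that start STAT signalling separated stimulated from resting Th9 cells. Of 17 cytokines tested, 15 rose after anti-CD3 and 1 fell, beside 33.2% and 30.5% of all genes. Their median log2 difference was 3.51 against 0.02 over all genes. The filter let in genes well above background on the 3 stimulated arrays alone, so these counts and this median lean toward a rise. Of the 7 cytokines that were well above background on all 12 arrays, 6 rose and 0 fell. Il2, the T cell growth factor that signals through STAT5, rose from below background on all resting arrays (adjusted p = 4.03e-07), and Il3 rose at least 1750-fold. Il9 rose by 7.22 ± 0.36 and Il21, a STAT3 ligand, by 5.68 ± 0.26. Within slide 3, 16 of the 17 differences lay above 0, with the same lean from the filter. Between Th9 and Th2, 3 cytokines were higher and 4 lower, beside 7.76% and 9.25% of all genes. With the replicate block the counts were 5 and 4. In this comparison the replicate numbers were taken to pair the arrays, on the data and not on a stated design. Il9 was at least 18.5-fold higher in Th9, Il6 was higher by 2.61 ± 0.65, and Csf2, which encodes GM-CSF, was lower, at -3.61 ± 0.69. Il6 lost its call without Th2 array 1 (adjusted p = 0.0642) or 2 (0.0625) or Th9 array 3 (0.0636), and Csf2 was at 0.063 (adjusted p = 0.987) with slide as a fixed block. Against Treg, 8 cytokines were higher and 3 lower in Th9 (2 and 2 of those 7, 8 and 1 with the slide block). In Th2, 7 were higher and 3 lower than in Treg. Of all genes, 28.8% were called higher and 35.3% lower in Th9, and 29.3% and 33.5% in Th2. Il4, the ligand that activates STAT6, was higher than in Treg by 9.96 ± 0.40 in Th9 and 11.03 ± 0.40 in Th2, and it was well above background on 1 of the 3 Treg arrays.

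Of 22 receptor chains tested, 11 were lower in Th9 than in Treg and 5 higher. In Th2, 12 were lower than in Treg and 5 higher. Of all genes, 35.3% were called lower and 28.8% higher in Th9, and 33.5% and 29.3% in Th2. Median differences were -0.53 and -0.68, against -0.11 and -0.08 over all genes. Il6ra, the IL-6 binding chain, was at -2.47 ± 0.22 for Th9 minus Treg and Ifnar1, a chain of the type I interferon receptor, at -1.94 ± 0.18. Il2ra, the high-affinity IL-2 chain, went the other way at 1.94 ± 0.13. Between Th9 and Th2, 4 chains were higher and 2 lower, beside 7.76% and 9.25% of all genes. The higher ones were Il2ra (0.83 ± 0.13), Il6st (0.82 ± 0.13), Il5ra (2.06 ± 0.42) and Csf2rb (2.78 ± 0.49). None of these 4 was called with slide as a fixed block (limma adjusted p = 0.069 to 0.387). With normexp background correction Il5ra was at 0.47 (adjusted p = 0.0748) and Csf2rb at 1.95, and Csf2rb was at 1.53 as the mean of its targets. Il6st is the shared signal chain of IL-6 relatives. After anti-CD3, 7 chains rose and 6 fell, beside 33.2% and 30.5% of all genes. Il12rb1, a chain of the IL-12 receptor, rose by 1.55 ± 0.15, while Ifnar2 fell by 1.74 ± 0.11 and Ifngr1 by 2.24 ± 0.23.

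The 4 Janus kinases, which phosphorylate the STATs, split evenly against Treg. Jak2 was higher in Th9 than in Treg by 1.77 ± 0.15 and Jak3, the partner of the common gamma chain, by 0.90 ± 0.13, while Jak1 was lower at -0.95 ± 0.11 and Tyk2 at -0.88 ± 0.11. Th2 minus Treg gave the same directions, with 1.06 ± 0.15 for Jak2, 0.77 ± 0.13 for Jak3, -1.20 ± 0.11 for Jak1 and -0.89 ± 0.11 for Tyk2, all called. These comparisons share the Treg arrays. Between Th9 and Th2, Jak2 was higher by 0.71 ± 0.15 (adjusted p = 0.00938), and Jak1 (0.25 ± 0.11), Jak3 (0.13 ± 0.13) and Tyk2 (0.01 ± 0.11) did not pass the test. Jak2 lost this call as the mean of its targets (0.55; limma adjusted p = 0.0773) and with slide as a fixed block (0.75; adjusted p = 0.431). As the mean of its targets, Jak2 was at 1.74 in Th2 minus Treg. After anti-CD3, Jak1 fell by 1.20 ± 0.11 and Jak3 by 1.18 ± 0.13, whereas Jak2 (0.21 ± 0.15) and Tyk2 (-0.25 ± 0.11) did not pass.

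Of 16 inhibitors of STAT signalling, 1 was higher in Th9 than in Th2 and 1 lower, beside 7.76% and 9.25% of all genes. Socs3, which blocks STAT3 signalling, was at -0.87 ± 0.20 (adjusted p = 0.0148) and Pias2 at 0.38 ± 0.10 (adjusted p = 0.0238). Socs3 lost its call without Th9 array 1 (adjusted p = 0.0566), and Pias2 lost its call without any Th2 array or without Th9 array 1 or 2 (adjusted p = 0.0532 to 0.0917). Against Treg, 8 were higher in Th9 and 4 lower, beside 28.8% and 35.3% of all genes. With slide as a fixed block the counts were 5 and 1. Cish and Socs2, both induced by STAT5, were higher by 2.99 ± 0.21 and 1.50 ± 0.18, and Ptpn2, a phosphatase of JAKs and STATs, by 1.62 ± 0.12. After anti-CD3, 4 rose and 4 fell, beside 33.2% and 30.5% of all genes, among them Socs6 (1.13 ± 0.11) and Pias3 (-1.20 ± 0.14), an inhibitor of STAT3.

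Known target genes of the STATs were then set beside the STAT genes themselves. All 10 interferon targets of STAT2 were lower in Th9 than in Treg and all 10 lower in Th2 than in Treg. Of all genes, 35.3% and 33.5% were called lower in these comparisons. Median log2 differences of the targets were -4.83 and -4.24 against -0.11 and -0.08 over all genes. The same 10 of 10 were called with slide as a fixed block. For Th2 minus Treg this block gives the difference within slide 1, which holds 1 Treg array, and there 10 of 10 lay below 0. Ifi44 stood at -8.76 ± 0.77, Oas2 at -6.39 ± 0.56, Rsad2 at -5.87 ± 0.42 and Mx1 at -5.78 ± 0.49 for Th9 minus Treg, each an interferon-induced antiviral gene, and Oas2 was at -5.67 without Treg array 3. Stat2, these genes and the B cell markers were thus all higher in Treg than in Th9 and Th2 cultures, and from which cells the signal came was not tested. Between Th9 and Th2, 1 of the 10 was higher and 3 lower, beside 7.76% and 9.25% of all genes. Their median was -0.62, while Stat2 was at 0.54. None of these called targets was called with slide as a fixed block. After anti-CD3, 4 of the 10 rose and 0 fell, beside 33.2% and 30.5% of all genes. Isg15 rose by 3.37 ± 0.32, while Stat2 was at -0.43.

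All 12 STAT6 targets were higher in Th9 than in Treg and all 12 higher in Th2 than in Treg. Of all genes, 28.8% and 29.3% were called higher in these comparisons. The list was chosen with earlier results of these data known, and the cultures differed in IL-4 by design. Its share is therefore a description and not a test of STAT6. The targets had medians of 2.16 and 3.10, although Stat6 RNA itself did not pass the test in either comparison. With slide as a fixed block the counts were 10 and 12. Il24 (10.47 ± 0.20), Il4, Ccr8 (5.75 ± 0.16) and Nfil3 (5.67 ± 0.21), the last a factor induced by IL-4, led in Th9 minus Treg. Between Th9 and Th2, 1 STAT6 target was higher and 4 lower, beside 7.76% and 9.25% of all genes. The higher one was Ccr8 at 2.04 ± 0.16. Among the lower ones were Pparg at -2.67 ± 0.24 and Il13 at -1.56 ± 0.23.

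Of 12 STAT5 targets, 8 were higher in Th9 than in Treg and 2 lower, where 28.8% and 35.3% of all genes were called in these directions. Th2 minus Treg also gave 8 higher and 2 lower, beside 29.3% and 33.5%, although Stat5a was lower in Th2 than in Treg. Between Th9 and Th2, 4 were higher and 3 lower, beside 7.76% and 9.25%. The higher ones included Il9 (at least 18.5-fold) and Foxp3 (at least 14.4-fold), which also served above to check the cultures. After anti-CD3 7 rose and 3 fell, beside 33.2% and 30.5%. Bcl2l1, a survival gene, rose by 2.02 ± 0.11 while Bcl2 fell by 2.13 ± 0.13 and the kinase gene Pim2 by 2.76 ± 0.15. Of 11 STAT3 targets, 8 were higher in Th9 than in Treg and 1 lower (4 and 1 with the slide block), beside 28.8% and 35.3% of all genes. In Th2 minus Treg 8 were higher and 2 lower, beside 29.3% and 33.5%, where Stat3 itself was at 0.13 (adjusted p = 0.69). After anti-CD3 2 rose and 4 fell (2 and 2 with the slide block), beside 33.2% and 30.5% of all genes, and Rora fell by 3.26 ± 0.24. In Th9 against Th2, 3 were higher and 2 lower, beside 7.76% and 9.25%, with Batf, a factor of Th9 and Th17 cells, at 1.32 ± 0.18. Of 10 STAT4 targets, 6 rose after anti-CD3 and 0 fell (5 and 2 with the slide block), beside 33.2% and 30.5% of all genes. Their median was 1.62, in the same arrays in which Stat4 fell. Ifng rose by 6.82 ± 0.79, but stimulated Th9 array 3 lay well below arrays 1 and 2, at 4.56 against 8.39 and 8.12. The Ifng difference was 8.06 without that array, 6.14 without stimulated Th9 array 1 and 4.36 within slide 3. Tbx21, the factor that drives the Th1 fate, rose by 3.18 ± 0.34 (2.26 within slide 3), and Ccl3 rose at least 3030-fold as processed here. The log2 difference of Ccl3 was 13.15 as reported, 10.97 within slide 3 and 8.61 with another background correction (normexp). Against Treg, Th9 had 3 STAT4 targets higher and 4 lower (5 and 3 with the slide block), beside 28.8% and 35.3% of all genes. Il18r1 was at -5.24 ± 0.30 in Th9 minus Treg. Several genes stand in more than 1 list, such as Il4, Il9, Il21 and Ifng, which are both cytokines and targets.

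**Figure D4:**
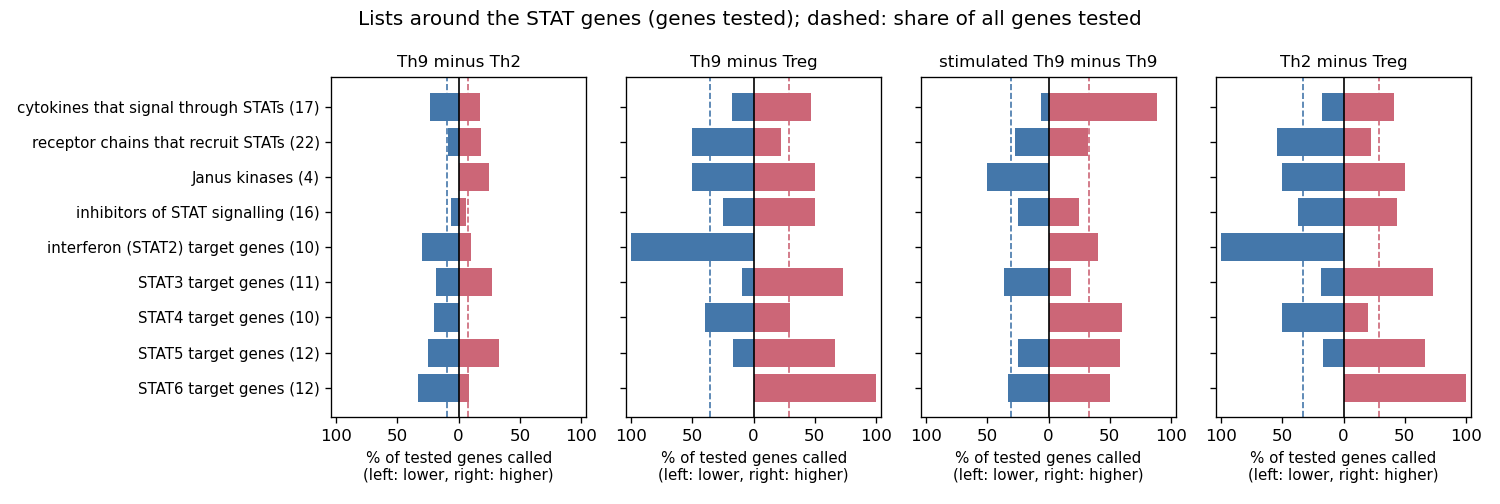
Share of the tested genes of each list (number in brackets) called lower, drawn to the left, or higher, drawn to the right (horizontal axis, percent), in 4 comparisons, with dashed lines at the share of all genes called. Interferon targets fill the left side and STAT6 targets the right side in both comparisons with Treg. Cytokines, some of them not well above background on any resting Th9 array, reach 15 of 17 on the right after anti-CD3. The lists were chosen with earlier results of these data known.

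The stretches of 250 bases before the annotated transcript starts were searched on both strands for the words that STAT proteins are known to bind. RefSeq's table for GRCm38.p6 held 9 windows for the 6 genes. TTCNNNGAA, the general STAT word, was in 0 of the 9 windows and in 7.02% of 32851 windows of all genes. The same word with 4 bases between TTC and GAA, the spacing that STAT6 is known to accept, was in 5.85% of all windows, and GAAANNGAA, a core of the interferon-stimulated response element that STAT2 complexes bind, in 7.13%. Among the STAT genes, matches lay in Stat2 and in the second of 2 annotated starts of Stat4. The first Stat4 window held none, and which start these cells use was not tested. The windows with matches are shown, with the matches in capitals. In Stat2, GAAANNGAA lies on the minus strand 221 to 213 bases before the start, and TTC and GAA lie 4 apart 210 to 201 bases before it. In Stat4, GAAANNGAA lies on the plus strand 97 to 89 bases before the start. A match is a stretch of letters and not a shown binding site, and no match elsewhere says only that these letters are not in these windows.
Stat2, GRCm38.p6 chr10:128270248-128270497, plus strand: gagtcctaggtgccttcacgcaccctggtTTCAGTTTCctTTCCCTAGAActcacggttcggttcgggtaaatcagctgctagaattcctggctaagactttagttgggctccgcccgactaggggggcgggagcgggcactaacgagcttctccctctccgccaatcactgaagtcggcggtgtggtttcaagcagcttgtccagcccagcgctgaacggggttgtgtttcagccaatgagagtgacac
Stat4, GRCm38.p6 chr1:52007990-52008239, plus strand: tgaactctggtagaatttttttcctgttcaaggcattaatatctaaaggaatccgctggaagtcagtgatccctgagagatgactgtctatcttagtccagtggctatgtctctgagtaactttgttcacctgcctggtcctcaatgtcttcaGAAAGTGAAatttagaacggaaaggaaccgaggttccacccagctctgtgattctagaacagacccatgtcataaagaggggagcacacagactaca

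Over the 12 arrays, the tested genes with levels most like each STAT gene were found by Pearson correlation among genes outside the family. For Stat2 these were Ncoa7 (r = 0.99), Trim56 (r = 0.987) and Zbp1 (r = 0.986), and for Stat4 they were Ablim1 (r = 0.989), Txk (r = 0.98) and Zfp758 (r = 0.98). Stat5a was closest to Kifc3 (r = 0.982), Il1rn (r = 0.976) and Zfp263 (r = 0.974), and Stat5b to Dapp1 (r = 0.987), Cage1 (r = 0.979) and Itsn2 (r = 0.973). For Stat3 the closest were Camk2n1 (r = 0.943), C1qtnf4 (r = 0.941) and Neurog2 (r = 0.94), and for Stat6 Bri3 (r = 0.968), Dnajc5 (r = 0.957) and Rab5b (r = 0.957). All these values rest on the same 12 arrays in 4 groups, picked as the highest among the genes tested, and describe likeness of level alone.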

How the data were processed

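The deposited scanner files hold spot intensity on a linear scale from 1-colour (Cy3) Agilent arrays, written by Agilent Feature Extraction (version 10.5.1.1), whose background subtraction acted within each array, per the file headers. The deposited table of the series holds log2 values, and the sources used here name neither their tool, offset nor scaling. Its columns correlated with the arrays' own log2 signal at 0.9996 or above, had medians of 5.171 to 5.174, and served as an alternative.

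Log2 processed signal minus each array's 75th percentile was used, without control spots and outlier spots (60 to 94 per array), with spots of a probe averaged. No spot was saturated. Probes well above background on at least 3 of 12 arrays were kept, and a gene took its brightest probe. Probes were named through RefSeq accessions (24375), current symbols (6301) or older symbols (2426), or kept the design's name (8072). All 12 arrays were fitted with limma 3.58.1 in R 4.3.3 (1 mean per group, then eBayes), with Benjamini-Hochberg adjustment over all genes and calls at an adjusted p under 0.05. The procedure was checked on simulated data. SE is limma's standard error, SD is over 3 arrays, and a fold against a group not above background on any array is written as a bound. That bound compares the brighter mean with the higher of the dim signal and the lowest signal well above background, per array. It holds for the processing as reported. With normexp background correction the log2 rise of Il3 after anti-CD3 was 8.17 instead of 13.03. In Th9 minus Th2, Il9 was then 1.91 instead of 6.39 and Foxp3 1.48 instead of 4.17. The number of arrays limits the precision.

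Named list genes were up to 4 called members per list and comparison with the largest change, no overlap between groups and a detected probe. Only some are printed. The members and lists were chosen with earlier results of these data known. A further gene of the family is not reported here. Alternatives covered scaling, background, filter, probe choice, arrays fitted, slide, replicate number and single arrays left out, and those for the list counts and named list genes were added after seeing the data. The labels number the arrays 1 to 3 in each group. Between Th2 and Th9, deviations from the group means correlated between same-numbered arrays at 0.20, 0.18 and 0.41, so these numbers were taken to pair the arrays, on the data and not on a stated design. Over all group pairs the median was 0.086 for equal numbers (8 of 18 pairs above 0.1) and -0.037 for unequal ones (1 of 36), and in the other comparisons made not every pair was above 0.1.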

Additional observations from a re-analysis of the deposited data

How the results depend on the processing

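The number of STAT genes called between Th9 and Th2, 4 as reported, was 2 without a filter on dim probes, 2 with only the 6 arrays compared, 0 with slide as a fixed block, and 2 to 3 when single arrays were left out. Between Th9 and Treg it was 2 with slide as a fixed block instead of 5. The cause was not tested. Values that changed sign were Stat2 in Th9 minus Th2 with the slide block (-0.069) and 3 genes in Th2 minus Treg that had not passed the test. Stat3 there was 0.13 as reported, -0.029 after quantile normalization, -0.021 in the deposited table, -0.27 as the mean of its targets, -0.0064 without Th2 array 1 and -0.089 without Treg array 3, with single arrays left out giving -0.089 to 0.34. Stat5b was 0.48 as the mean of its targets (limma adjusted p = 0.0211), and -0.37 after quantile normalization (adjusted p = 0.0096). Stat6 was 0.13 without Th2 array 3, within a range of -0.11 to 0.13 over single arrays left out. Of 144 values with 1 array left out, 129 kept direction and call, 12 lost the call and 3 changed sign. Genes called with slide as a fixed block numbered 317 for Th9 against Th2, 6685 for Th9 against Treg, 9063 after anti-CD3 and 9001 for Th2 against Treg. With slide as a random block the correlation within slides was -0.003 and the STAT counts were 4, 5, 6 and 3. The replicate block was fitted over all 12 arrays, with 1 effect per replicate number, and not as a pairing of Th9 with Th2 alone. With this block no STAT gene gained or lost a call, and the STAT counts were again 4, 5, 6 and 3. All genes called were then 3085, 11534, 11598 and 11307 against 3049, 11474, 11418 and 11246. Differences within a slide could be had only for stimulated against resting Th9 and for Th2 against Treg. In these comparisons slide as a fixed block gives the same difference, so the 2 are a single check.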
